A study of Mus musculus with 12 samples.

Results

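The genes described here encode the proteins of the mitochondrial ribosome. They were taken as every protein-coding gene whose symbol starts with Mrpl (large subunit) or Mrps (small subunit) followed by a digit, and 78 of the 28997 genes in the deposited tables met that rule, 49 of the large and 29 of the small subunit. RNA was measured in the soleus, a calf muscle in which slow fibres are common, from 12 mice in 4 groups of 3. The labels give the groups as Cdh5cre-WT mice on chow diet, Cdh5cre-WT mice on high fat diet, Cdh5Cre-NOX1CKO mice on chow diet and Cdh5Cre-NOX1CKO mice on high fat diet, with 8 weeks of diet per the series design. All 4 groups therefore carry a Cre under Cdh5, a gene of endothelial cells, and CKO stands for the conditional knockout of Nox1, an NADPH oxidase, in the cells in which that Cre acts. The muscle was sequenced whole, so RNA of muscle fibres and of endothelial cells was read together. The age and sex of the mice are not given in the sources used here. The deposited data are 4 tables, each comparing 2 groups that carry the codes G1 to G4, and the labels do not say which genotype and diet a code stands for. The groups are therefore named by their codes, and no direction is read for genotype or for diet.

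The mitochondrial ribosome makes the few proteins that the mitochondrial genome still encodes, all of them core parts of the respiratory chain and of the ATP synthase. Its RNAs come from mitochondrial DNA, whereas every one of its proteins is encoded in the nucleus, made in the cytosol and imported, so its assembly needs both genomes. The small subunit binds the messenger RNA and reads codons, and the large subunit joins amino acids and passes the new chain to the inner membrane. Some of its proteins have counterparts in bacterial ribosomes and the others are specific to mitochondria. Symbols and structure do not match fully, since the proteins of Mrps18a and Mrps30 sit in the large subunit, and that of Mrps36 is a part of the 2-oxoglutarate dehydrogenase complex. Conversely, Dap3, Chchd1, Ptcd3 and Aurkaip1 of the small and Gadd45gip1 of the large subunit do not carry an Mrp symbol.

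All 78 genes had a total of at least 100 normalised reads over the 12 libraries, the minimum used here for all genes, and 77 had at least 500. The total over all genes came to a mean of 24905255 normalised reads per library. The totals were taken as normalised reads, which their header does not state. The soleus markers were abundant in every group, where 7 slow fibre genes together took 22102 to 28457 and 8 fast fibre genes 39961 to 48458 RPM, the usual scale of reads relative to library size. Markers of other cell types were at lower sums, with none at 0, and 8 adipocyte genes took 192 to 245, 8 macrophage genes 59.7 to 78.9, 8 endothelial genes 457 to 539, 5 erythroid genes 112 to 179 and 6 Schwann cell genes 74.7 to 90.4 RPM. Slow fibre markers were highest and adipocyte, endothelial, erythroid and Schwann cell markers lowest in G2. All 7 slow fibre genes were higher in G2 than in G1, with a median log2 of 0.34 and 6 at an unadjusted p under 0.05. The 5 erythroid genes were all lower, with a median of -0.70 and 3 at that p, which 2.35% of all genes reached. The adipocyte, macrophage and endothelial genes were all lower too, with 1 adipocyte gene at that p. Fast fibre markers were highest in G1 and lowest in G3. In G3 against G1, 7 of 8 were lower, with a median log2 of -0.37 and 3 of them at an unadjusted p under 0.05. In G4 against G2, all 8 endothelial and all 5 erythroid genes were higher in G4, with medians of 0.21 and 0.40. All 7 slow and all 8 fast fibre genes were lower, with medians of -0.22 and -0.12 and 2 slow ones at that p. Adipocyte genes were higher in 6 of 8, and Fabp4 had a log2 of 0.37 with 0.0254 as its adjusted p, per the authors' deposited table. The macrophage and Schwann cell genes had 3 of 8 and 3 of 6 higher. In G4 against G3, all 7 slow and 7 of 8 fast fibre genes were higher, with medians of 0.13 and 0.08. All 5 erythroid and 7 of 8 macrophage genes were lower, with medians of -0.21 and -0.34. Of the endothelial, adipocyte and Schwann cell genes, 7 of 8, 5 of 8 and 1 of 6 were higher there. The part of these markers in the values below was not tested. In whole muscle, fewer cells of a type and less RNA per cell cannot be told apart.

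The genes of the mitochondrial ribosome were all detected, at levels that spread widely between genes and little between groups. Per kilobase of transcript the median was 20.0 RPM, against 3.80 over all genes with a total of at least 100. It was 40.9 for the 82 proteins of the cytosolic ribosome and 149 for 38 genes with symbols of respiratory complex I. Large subunit genes had a median of 22.5 and small subunit genes 16.5 RPM per kilobase. The highest level was that of Mrpl42, a large subunit protein specific to mitochondria, at 143 RPM per kilobase. Mrps21, the counterpart of bacterial S21, followed at 86.3, then Mrpl30 at 83.8 and Mrpl14, a protein of the subunit interface, at 75.6 RPM per kilobase. Mrps18a and Mrps23 were the next of the genes with a small subunit symbol, at 63.0 and 50.7 RPM per kilobase. At the low end stood Mrpl57 at 5.24, Mrps26 at 4.64, Mrpl19 at 4.61, Mrps35 at 4.58, Mrps25 at 2.81 and Mrpl23 at 0.785 RPM per kilobase. Mrpl23, whose protein lies at the exit of the peptide tunnel, had a total of 162 reads, while the pseudogene Mrpl23-ps1 had 8214, so its own level is uncertain. These levels rest on the median length of the annotated coding transcripts and change with the isoform chosen, so the order of genes with close levels is uncertain.

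**Figure D1:**
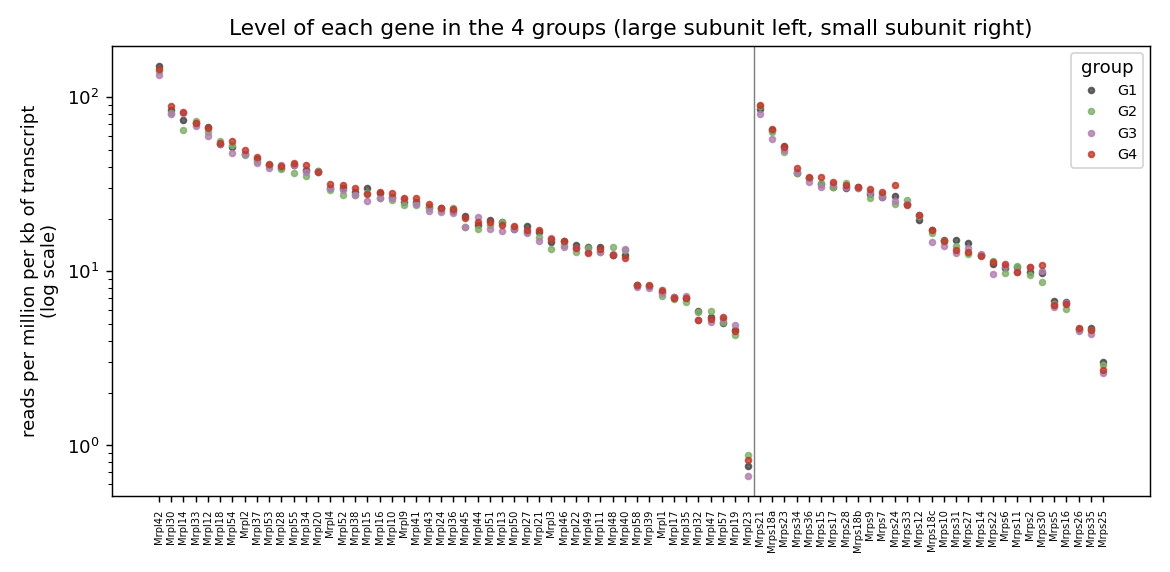
Implied mean level of each of the 78 genes in groups G1 to G4, in RPM per kilobase of transcript on a log axis, with the large subunit on the left and the small subunit on the right and 1 point per group. The 4 points of a gene lie close together while genes run from 0.785 to 143.

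The tables hold no values per library, so the level of a gene in a group was derived from its total and its fold changes and is called an implied level, in normalised reads per library. From the group with the lowest to that with the highest implied level, the genes differed by 1.01 to 1.32-fold, with a median of 1.09-fold, and 74 of 78 stayed under 1.2-fold. The subunits did not stand apart in this, with a median range of 1.09-fold in each. The most even gene was Mrpl20, with implied levels of 461, 464, 459 and 460 reads in G1, G2, G3 and G4. Mrpl23 had the widest range, 1.32-fold, but at 11.5 to 15.2 reads per library. Among well-covered genes, Mrps24 came next at 1.28-fold, with implied levels of 672, 608, 632 and 778 reads in G1 to G4, so that G4 alone stood above the other 3. Mrpl14 spanned 1.27-fold, with 1186, 1047, 1298 and 1325 reads, and G2 was its lowest group. Mrps30 spanned 1.25-fold, with 806, 723, 837 and 901 reads, and G2 was again the lowest and G4 the highest.

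Added up, the 78 genes took 59453, 57549, 57281 and 60317 normalised reads per library in G1 to G4, or 0.239, 0.235, 0.227 and 0.242% of all reads. Reads of the large subunit exceeded those of the small subunit by factors of 2.11, 2.09, 2.11 and 2.09 in the same groups. The ratio of the subunits' median levels per kilobase was 1.28, 1.34, 1.46 and 1.33. In every group the small subunit median was the level of Mrps18c, at 17.4, 16.7, 14.8 and 17.2 RPM per kilobase. The ratio therefore follows that gene and does not describe the balance of the subunits. The sums and ratios carry no error between animals.

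In G2 against G1 most of the genes stood a little lower in G2. Of the 78 genes, 23 were higher and 55 lower in G2 than in G1, with a median log2 fold change of -0.04, while 49.7% of all genes at or above the minimum total were higher. The medians were -0.05 for the large and -0.02 for the small subunit, a difference of -0.03. None of the 55 members listed in the authors' deposited table passed an adjusted p under 0.05 there, and 0.00639% of its listed genes did. With Benjamini-Hochberg adjustment over genes with a total of at least 100, 0 of the 78 passed. At an unadjusted p under 0.05 there was 1 gene, 1.28% of the 78 against 2.35% of all genes. That gene was Mrps27, a pentatricopeptide repeat protein of the small subunit, with implied levels of 673, 578, 627 and 593 reads in G1 to G4. In the authors' deposited table its log2 for G2 against G1 was -0.22 with p = 0.0316, and 1.0 after adjustment. Next to it were Mrpl45, the protein that ties the tunnel exit to the inner membrane, with -0.21 ± 0.13 (implied standard error), and Mrpl14 with -0.18 ± 0.10 in the authors' deposited table. On the positive side, Mrpl48 of the central protuberance had 0.16 ± 0.11, Mrpl47 0.11 ± 0.13 and Mrps28 0.10 ± 0.12. The authors' deposited table lists only genes at or below 0 here, so the 23 positive values were rebuilt from the other 3 tables.

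In G3 against G1, which shares G1 with the comparison before it, most of the genes stood lower in G3. There were 22 genes higher and 56 lower in G3 than in G1, with a median log2 of -0.05 against 0.00 over all genes, of which 50.1% were higher. In the large subunit 12 of 49 and in the small subunit 10 of 29 were higher, with medians of -0.05 and -0.07. None of the 78 passed an adjusted p under 0.05, which 61 of 28997 genes (0.21%) did in the authors' deposited table. The 28997 include genes under the minimum total. None of the 78 passed with adjustment over genes with a total of at least 100. Unadjusted, 3 genes had p under 0.05, all lower in G3, or 3.85% of the 78 against 5.63% of all genes.

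Mrps31, a small subunit protein specific to mitochondria, had implied levels of 574, 525, 479 and 501 reads in G1 to G4. G1 was the highest and G3 the lowest of its groups. In the authors' deposited table its log2 for G3 against G1 was -0.26 with p = 0.0134, and 1.0 after adjustment. Mrpl51 of the large subunit had 1690, 1572, 1494 and 1631 reads, and its log2 in the authors' deposited table was -0.18 with p = 0.0279. Mrpl15, the counterpart of bacterial L15, had 1414, 1333, 1194 and 1310 reads, and a log2 of -0.24 with p = 0.0446 in the authors' deposited table. All 3 were lowest in G3 and highest in G1, which follows in part from their choice on G3 against G1. Mrps18c, one of 3 relatives of bacterial S18, had -0.24 ± 0.13, Mrps25 -0.21 ± 0.12 and Mrpl45 -0.20 ± 0.13 (log2 of the authors' deposited table and implied standard error). In the other direction, Mrpl44, which has an RNase III-like fold, had 0.16 ± 0.08, Mrpl14 0.13 ± 0.10 and Mrps2 0.10 ± 0.11 in the authors' deposited table.

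**Figure D2:**
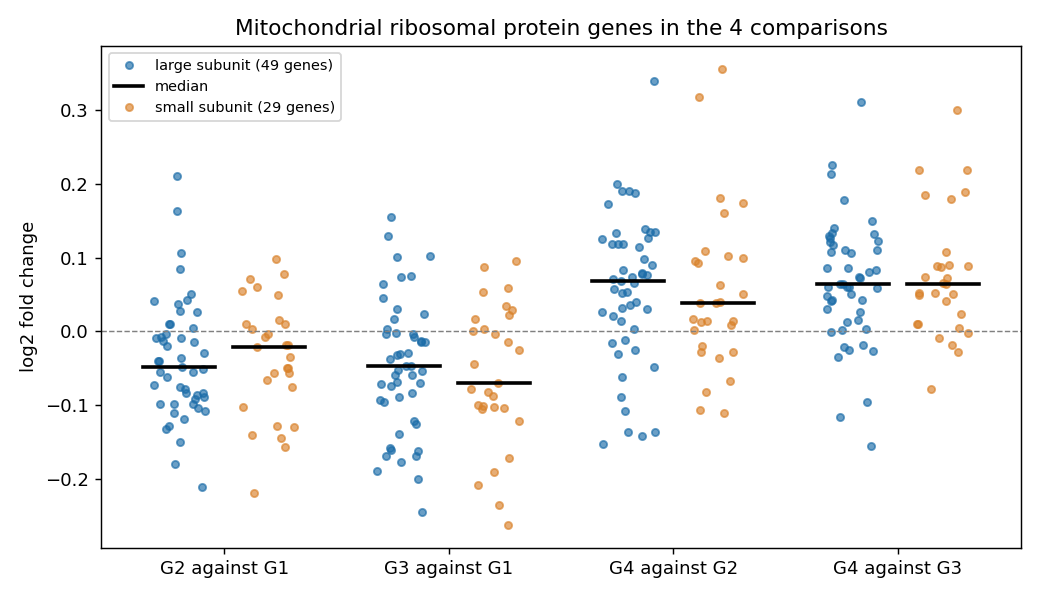
Log2 fold change of the 49 large (blue) and 29 small (orange) subunit genes in the 4 comparisons, 1 point per gene, with a black line at the median. Medians lie below 0 in G2 against G1 and G3 against G1 and above 0 in G4 against G2 and G4 against G3, and those of the 2 subunits differ by at most 0.03.

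G4 against G2 leaned to higher values and held the members nearest to a call. Here 58 genes were higher and 20 lower in G4, with a median log2 of 0.05 against 0.00 over all genes, of which 50.1% were higher. The large subunit had 37 of 49 higher with a median of 0.07, and the small subunit 21 of 29 with a median of 0.04. After removal of a trend on transcript length, GC content and total over all genes, these were 33 of 49 with 0.03 and 16 of 29 with 0.00. None of the 78 passed an adjusted p under 0.05 in the authors' deposited table, where 1.38% of the genes with an adjusted p did, and 0 passed with adjustment over genes with a total of at least 100. At an unadjusted p under 0.05 there were 5, all higher in G4, or 6.41% of the 78 against 9.06% of all genes.

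The nearest to a call was Mrpl14, for which the authors' deposited table gives a log2 of 0.34, p = 0.00115 and an adjusted p of 0.0689. Its implied 95% interval ran from 0.14 to 0.55 on the log2 scale, and its 1047 reads in G2 lay below all of its other groups. Its gene, at chr17:45686322-45698495 (GRCm38), overlaps Tmem63b on the opposite strand, and the sources used here do not give whether the counting used strand. Mrps24, the counterpart of bacterial S3, had, per the authors' deposited table, a log2 of 0.36 with p = 0.00401 and an adjusted p of 0.155. Its gene, at chr11:5703983-5715680, overlaps Urgcp on the same strand, so that strand cannot tell their reads apart in the shared stretch. Over all 78 genes, 25 overlapped another gene with a total of at least 100, 6 of them on the same strand and 21 on the opposite strand. Mrps30 had, per the authors' deposited table, a log2 of 0.32 with p = 0.0250 and an adjusted p of 0.405, and its protein belongs to the large subunit by structure.

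Mrps9, the counterpart of bacterial S9, had 986, 936, 1010 and 1057 reads in G1 to G4, and the authors' deposited table gives a log2 of 0.17 with an adjusted p of 0.399. Mrpl3, which lies near the site of peptide bond formation, had 1157, 1056, 1219 and 1204 reads, and the authors' deposited table gives a log2 of 0.19 with an adjusted p of 0.509. In all 5 genes G2 was the lowest group, and G4 was the highest in all but Mrpl3. They were picked on G4 against G2, so this order follows in part from the choice. Further along the list were Mrpl34 with 0.20 ± 0.12, Mrpl55 with 0.19 ± 0.10 and Mrps6 with 0.18 ± 0.16 (log2 of the authors' deposited table and implied standard error). The lowest were Mrpl48 with -0.15 ± 0.11, Mrpl47 with -0.14 ± 0.13, Mrpl40 of the central protuberance with -0.14 ± 0.11 and Mrps11 with -0.11 ± 0.11 in the authors' deposited table.

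In G4 against G3 most of the genes stood higher in G4, less so after removal of the trend on length, GC content and total (46 of 78). Before it there were 64 genes higher and 14 lower in G4, with a median log2 of 0.06 in each subunit, while 50.9% of all genes were higher. The 2 subunits had 40 of 49 and 24 of 29 higher. None of the 78 passed an adjusted p under 0.05 in the authors' deposited table, which 0.0394% of the genes with an adjusted p did, and 0 passed with adjustment over genes with a total of at least 100. Unadjusted, 3 had p under 0.05, all higher in G4, or 3.85% of the 78 against 4.83% of all genes.

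They were Mrps24, with a log2 of 0.30 and p = 0.0157 in the authors' deposited table, Mrpl54 with 0.23 and p = 0.0266, and Mrps21 with 0.18 and p = 0.0447. Mrpl54, which is specific to mitochondria, had implied levels of 785, 799, 719 and 841 reads in G1 to G4, and Mrps21 had 954, 994, 888 and 1005 reads. Both were lowest in G3 and highest in G4, which follows in part from their choice on G4 against G3. Mrps18c and Mrps22, the latter specific to mitochondria, each had 0.22 in the authors' deposited table, with implied standard errors of 0.14 and 0.12, and Mrpl21 had 0.21 ± 0.12. The negative end held Mrpl40 with -0.15 ± 0.11, Mrpl19 with -0.12 ± 0.13, Mrpl44 with -0.10 ± 0.08 and Mrps27 with -0.08 ± 0.10 in the authors' deposited table.

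**Figure D3:**
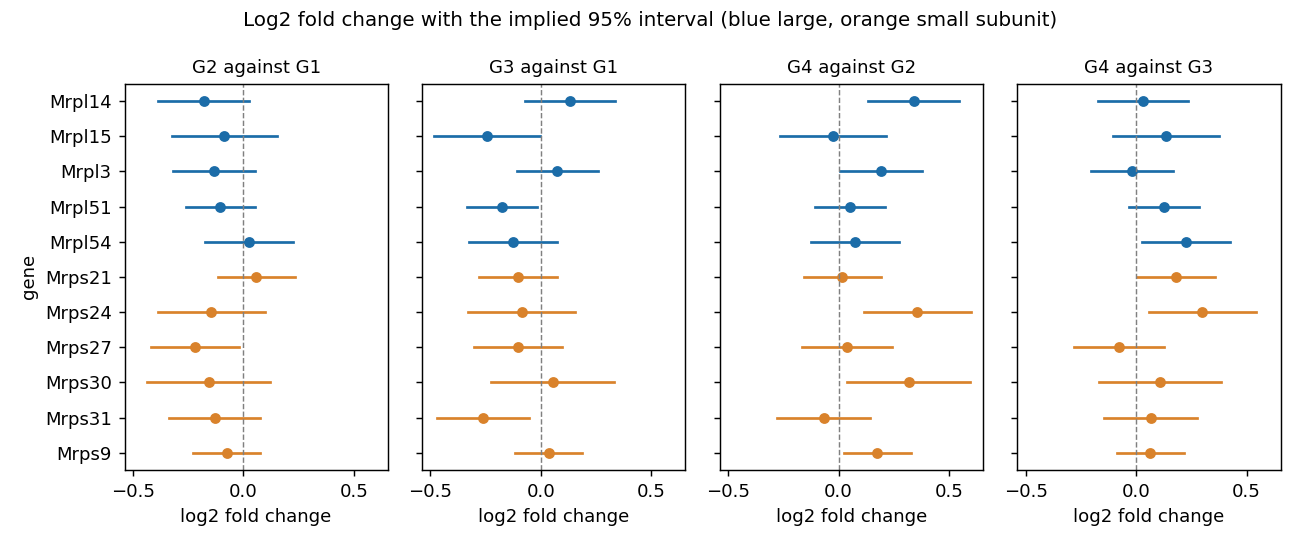
Log2 fold change (point) with the implied 95% interval (line) in the 4 comparisons for the 11 genes with an unadjusted p under 0.05 in at least 1 of them, large subunit in blue and small subunit in orange. Mrpl14, Mrps24 and Mrps30 stand furthest above 0 in G4 against G2, and Mrps31 and Mrpl15 furthest below 0 in G3 against G1.

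The intervals give the size of change that these data leave room for. The median implied standard error of the 78 genes was 0.11 on the log2 scale in each of the 4 comparisons. For a gene with that error, the largest p-value called in each comparison corresponds to a log2 of 0.59, 0.42, 0.36 and 0.47. These are in the order described. A smaller log2 could also have passed, above all in G2 against G1, where only 1 gene was called. The most precise was Mrpl37, with an implied standard error of 0.07. The whole 95% interval lay within 1.5-fold in either direction for 77, 77, 75 and 77 genes. Mrpl23 was outside in all 4, with bounds of up to 1.28 on the log2 scale. Among genes with a total of at least 1000, the widest bound was that of Mrps24 in G4 against G2, at 0.60 or 1.51-fold. Changes below the sizes above could go uncalled at this depth and spread, and the data do not show that they are absent.

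The 4 comparisons are made from 4 groups, and only those that share no group can be set against each other. From G3 against G1 to G4 against G2, 40 of 78 genes were negative in the first and positive in the second. Another 18 were positive in both, 16 negative in both and 4 positive then negative. From G2 against G1 to G4 against G3, 45 were negative then positive, 19 were positive in both, 10 negative in both and 4 positive then negative. Given the counts on each side of 0 in the single comparisons, these combinations add no separate result. Pearson's r was 0.33 over the 78 genes and 0.17 over all genes for the first pair, and 0.04 and -0.11 for the second, as a description of genes that share libraries. Both pairs are built from the same 4 groups and are not separate evidence.

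**Figure D4:**
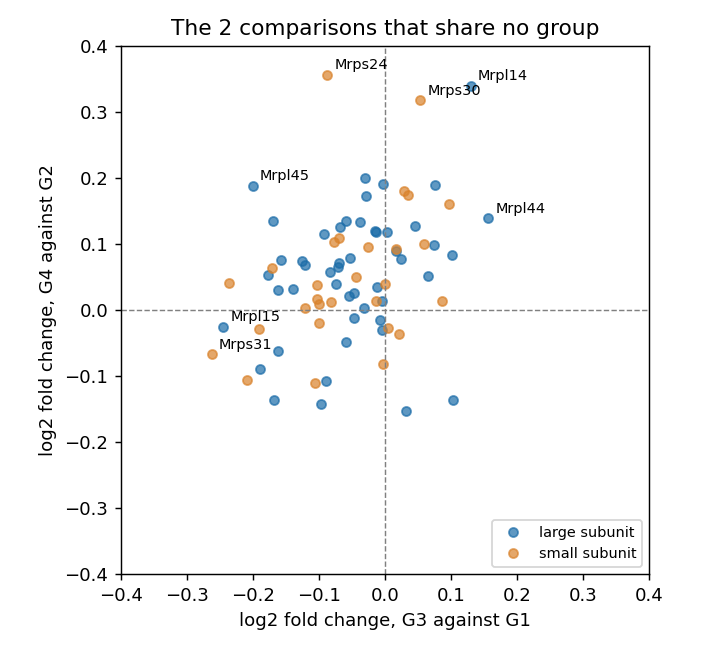
Log2 fold change of each of the 78 genes in G4 against G2 (vertical) and in G3 against G1 (horizontal), large subunit in blue and small subunit in orange, with 7 genes named. The upper left quadrant, negative then positive, holds 40 genes and the lower right 4.

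Seen by group, the highest implied level of a gene was most often in G4 (35 genes) or G1 (23), and less often in G2 (12) or G3 (8). The lowest was most often in G3 (37) or G2 (31), and in G1 and G4 for 6 and 4 genes. Over all genes with a total of at least 100, each group was the highest for 21.1 to 27.8% and the lowest for 20.0 to 27.3%. G1 and G4 thus held most of the highest values, and G2 and G3 most of the lowest, in both subunits.

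The difference of the 2 comparisons, G4 against G2 minus G3 against G1, is the interaction of genotype and diet if G1 and G4 differ in both, which the labels do not state. Its median was 0.12 for the large and 0.11 for the small subunit on the log2 scale, and it was positive in 64 of 78 genes against 51.5% of all genes. None passed an adjusted p under 0.05 with Benjamini-Hochberg adjustment over 15492 genes, of which 0.00645% did. At an unadjusted p under 0.05 there were 3, or 3.85% against 4.12% of all genes. These were Mrps24 with 0.44 ± 0.18 (implied standard error), Mrpl45 with 0.39 ± 0.19 and Mrpl51 with 0.23 ± 0.11, and after adjustment each stood at 1.0. All 3 were negative in G3 against G1 and positive in G4 against G2, which follows in part from their choice on this difference.

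The mean of the same 2 comparisons, which sets G3 and G4 against G1 and G2 with a smaller error, centred on 0. Its median was -0.01 in each subunit, and 37 of 78 genes were positive. None passed an adjusted p under 0.05, which 1.65% of all genes did, and 5 (6.41%, against 9.74% of all genes) had an unadjusted p under 0.05. Mrpl14 had 0.23 ± 0.07 with an adjusted p of 0.0714, and Mrpl44 had 0.15 ± 0.06 with an adjusted p of 0.230. Mrpl44 had 655 and 620 reads in G1 and G2 against 730 and 683 in G3 and G4, with both of the former below both of the latter. Mrpl3 had 0.13 ± 0.07, Mrps31 -0.16 ± 0.08 and Mrpl32 -0.15 ± 0.07, with adjusted p of 0.505, 0.406 and 0.438.

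The mean that sets G2 and G4 against G1 and G3 had a median of 0.02 in the large and 0.03 in the small subunit, with 49 of 78 positive. After removal of the trend on length, GC content and total, these medians were -0.008 and -0.001, with 35 of 78 positive, so the direction turned. None passed an adjusted p under 0.05, which 0.0452% of all genes did, and 1 (1.28%, against 3.12% of all genes) had an unadjusted p under 0.05. It was Mrps27, with -0.15 ± 0.07 and an adjusted p of 1.0. Its highest and lowest groups were G1 and G2.

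The genes were also grouped by descent. The 30 large subunit genes with a bacterial counterpart had medians of -0.05, -0.04, 0.08 and 0.06 in the 4 comparisons, given in the order used so far. The 19 large subunit genes specific to mitochondria had -0.01, -0.05, 0.07 and 0.08 in the same order. In the small subunit, 18 genes with a counterpart had -0.02, -0.02, 0.04 and 0.05, and 11 without one had -0.04, -0.08, 0.01 and 0.07. By structure the subunits differ in 3 genes, of which Mrps18a had implied levels of 1222, 1180, 1085 and 1234 reads in G1 to G4 and Mrps36 had 547, 544, 517 and 549. Both were lowest in G3 and highest in G4. The 5 ribosomal proteins with other symbols had medians of -0.06, -0.10, 0.01 and 0.05, with none called in the 4 comparisons. Among them, Aurkaip1 had 0.18 in G4 against G3, with p = 0.025 before adjustment in the authors' deposited table.

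Of the other genes that serve mitochondrial translation, 1 was called in the 4 comparisons. Of the 14 genes listed as factors of mitochondrial translation, 0, 6, 8 and 7 were positive in the 4 comparisons in the order above, and none was called. Mss51 was furthest from 0 and little expressed, with a mean of 2.16 RPM, and its role in translation was not examined here. It had -2.19 ± 1.53 for G2 and -2.67 ± 1.53 for G3, each relative to G1, in the authors' deposited tables. Its intervals included 0. Tufm, the elongation factor that brings transfer RNA to the ribosome, had 0.21 ± 0.11 for G4 relative to G2 and -0.16 ± 0.11 for G2 relative to G1, per the authors' deposited tables. Mrrf, which recycles ribosomes, had 0.22 ± 0.10 for G4 relative to G2, with 0.450 as its adjusted p in the authors' deposited table. Of 26 genes for assembly of the mitochondrial ribosome, 9, 12, 13 and 15 were positive, with medians of -0.02, -0.01, 0.00 and 0.03, and none was called. Mrm1, a methyltransferase for the large ribosomal RNA, was furthest from 0 among them in G4 against G2, with -0.43 ± 0.18 and 0.344 as its adjusted p per the authors' deposited table. Of 18 genes of mitochondrial transcription and RNA handling, 4, 10, 12 and 9 were positive, and none was called. Of the 10 chaperones and proteases, 2, 5, 7 and 5 were positive, and none was called.

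Among 20 genes for mitochondrial aminoacyl-tRNA synthesis, 7, 11, 9 and 10 were positive and 1 was called. Lars2, which charges the leucine transfer RNA, was lower in G4 than in G3, where the authors' deposited table gives a log2 of -0.81 with an adjusted p of 0.0083. In the same authors' deposited table the transcript CT010467.1, a ribosomal RNA gene, had -0.96 with an adjusted p of 2.5e-05. Whether Lars2 takes reads from ribosomal RNA was not tested, and its value is uncertain.

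Of 9 regulators of mitochondrial biogenesis, 2, 3, 6 and 6 were positive, with medians of -0.07, -0.03, 0.21 and 0.14, and none was called. Ppargc1a, a coactivator that promotes mitochondrial biogenesis, had -0.44 ± 0.50 for G3 against G1 in the authors' deposited table, and 0.61 ± 0.50 and 0.81 ± 0.50 for G4 set against G2 and against G3. Its spread was several times that of the ribosomal genes, and its intervals included 0. Esrra, a nuclear receptor that works with it, had 0.21 ± 0.08 in G4 against G2, and 0.306 as its adjusted p, per the authors' deposited table. Myc had 0.95 ± 0.38 in the same comparison, and 0.295 as its adjusted p, per the authors' deposited table.

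The messenger RNAs that the mitochondrial ribosome translates come from mitochondrial DNA, and their values had another order of groups. All 13 messenger RNAs encoded in the mitochondrial genome were lower in G2 than in G1 (median -0.12) and higher in G3 than in G1 (0.14) and in G4 than in G2 (0.21), and 2 of 13 were higher in G4 than in G3 (-0.03). None was called in the 4 comparisons, and mt-Co1 was called in the mean of G3 and G4 against G1 and G2, at 0.18 with an adjusted p of 0.018. These 13 share one genome and its transcripts, and their reads are not independent. In G3 against G1 their median was positive and that of the nuclear ribosomal proteins negative. Complex I was taken as the 38 nuclear genes with a symbol starting Ndufa, Ndufb, Ndufc, Ndufs or Ndufv followed by a digit. Whether each of them encodes a subunit was not checked. Their medians were -0.04, -0.05, 0.06 and 0.07, with 5, 8, 35 and 35 positive. The 78 mitochondrial ribosomal proteins had -0.04, -0.05, 0.05 and 0.06 in the same order. The 82 proteins of the cytosolic ribosome had 0.05, -0.04, 0.02 and 0.12, with 65, 22, 50 and 75 positive, and so were on the other side of 0 in G2 against G1. After removal of a trend on transcript length, GC content and total, described next, the medians of the cytosolic ribosome were 0.05, -0.00, -0.02 and 0.04, with 66, 38, 30 and 58 of 81 positive, so the direction in G4 against G2 turned. Those of complex I were -0.04, -0.02, 0.01 and -0.01, with 5, 12, 24 and 15 positive, so its direction in G4 against G3 turned. The differences between these lists were not tested.

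Transcript length moved with the fold changes of all genes, and the mitochondrial ribosomal proteins have short transcripts. Their median length was 1224.5 bases against 2454 over all genes. Over 15179 genes, Spearman's rho between length and log2 was 0.06, 0.16, -0.11 and -0.24 in the 4 comparisons. Over the 78 genes it was -0.18, 0.06, -0.06 and -0.29, with the opposite sign to all genes in G2 against G1. In G4 against G3, all genes of up to 1000 bases had a median of 0.07 and the 30 members among them 0.08. Between 1000 and 1500 bases the medians were 0.05 for all genes and 0.09 for 19 members.

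After removal of a trend on length, GC content and total over all genes, the medians of the 78 genes were -0.04, -0.03, 0.02 and 0.02 in the 4 comparisons, with 22, 32, 49 and 46 positive. In G4 against G3 the count of positive genes was thus 64 before and 46 after, and in G3 against G1 22 before and 32 after. The median of the interaction over the 78 genes was 0.11 before and 0.08 after, with 64 and 57 positive, and in the large subunit it was 0.12 before and 0.06 after. Mrpl14 in G4 against G2 had 0.26 after removal with an adjusted p of 0.350, and Mrps24 had 0.31 with an adjusted p of 0.324. The part that length plays in these values was not tested further.

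**Figure D5:**
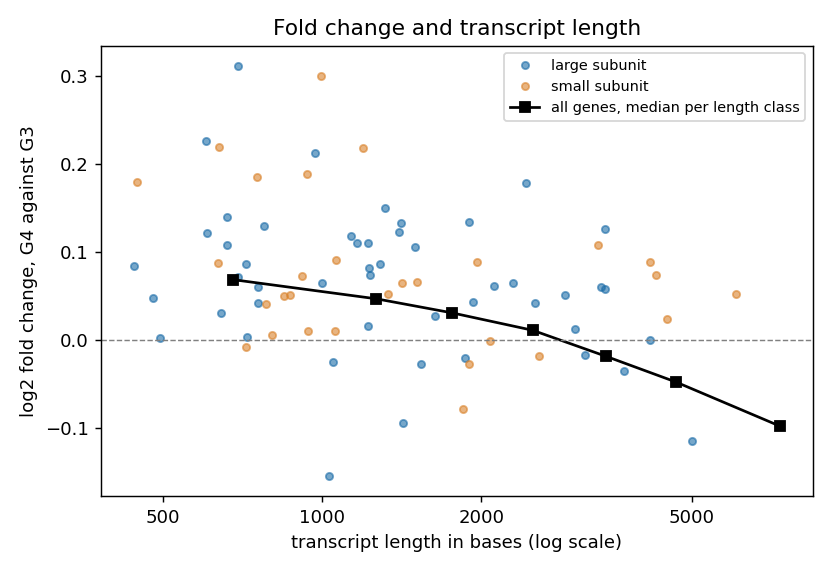
Log2 fold change in G4 against G3 (vertical) against transcript length in bases on a log axis, for the 49 large (blue) and 29 small (orange) subunit genes, with black squares for the median of all genes in each of 7 length classes. The squares fall from 0.07 in the shortest class to -0.10 in the longest, and most of the 78 genes lie at the short end.

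The 78 genes lie on 17 chromosomes, and many sit start to start with a neighbour. A gene on the opposite strand began within 1000 bases in 21 of the 78 (26.9%), against 1378 of 12676 protein-coding genes with a total of at least 100 (10.9%). In Mrpl46 and Mrps11 this joins a large to a small subunit gene, with 30 bases between their starts on chromosome 7. Mrpl46 had a log2 of 0.07 ± 0.10 and Mrps11 -0.11 ± 0.11 in G4 against G2, and -0.12 ± 0.10 and -0.11 ± 0.11 in G3 against G1, in the authors' deposited tables. The pair thus lay on the same side of 0 in one and on opposite sides in the other, with intervals that included 0 throughout. Mrps12, a protein of the decoding centre, starts 182 bases from Sars2, the mitochondrial seryl-tRNA synthetase, and Mrpl43 starts 116 bases from Twnk, the helicase of mitochondrial DNA.

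The promoters of these genes hold short letter runs known for factors that serve mitochondrial genes. RefSeq promoters (GRCm38.p6, 250 bases before to 50 after the start) were matched for 69 of the 78 and for 10001 genes with a total of at least 100, and both strands were searched. The ETS letters CCGGAAGT, bound by GABPA among others, were in 12 of 69 (17.4%) against 8.33% of all. The YY1 letters AAGATGGC were in 12 (17.4%) against 4.64%. The letters GCGCATGC, a part of the NRF1 motif, were in 8 (11.6%) against 5.40%. The longer NRF1 motif, the same letters followed by GC, was in 3 of these 8, namely Mrpl9, Mrpl32 and Mrpl39, or 4.35% against 2.07%. At least 1 of these runs was in 29 of the 69, and in 1713 of all 10001 (17.1%). A match is a description of letters and shows no binding.

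The 150 bases before the start are shown for 4 of these genes, 2 with NRF1 letters and 2 with ETS letters, to let the runs and their distance from the start be seen, with the matched letters in capitals. Each is written 5′ to 3′ on the strand of its gene. Mrpl9 lies at chr3:94443186-94443335 (plus strand) and Mrpl22 at chr11:58171514-58171663 (plus strand), with the NRF1 letters and their part. Mrpl3 lies at chr9:105053118-105053267 (plus strand) and Mrps22 at chr9:98601680-98601829 (minus strand), with the ETS letters.
Mrpl9: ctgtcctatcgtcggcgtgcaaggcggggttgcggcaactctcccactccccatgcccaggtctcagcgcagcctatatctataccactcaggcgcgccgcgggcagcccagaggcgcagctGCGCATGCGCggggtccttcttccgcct
Mrpl22: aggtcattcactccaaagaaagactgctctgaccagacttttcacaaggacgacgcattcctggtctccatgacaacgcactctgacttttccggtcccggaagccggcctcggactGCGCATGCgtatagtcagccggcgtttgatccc
Mrpl3: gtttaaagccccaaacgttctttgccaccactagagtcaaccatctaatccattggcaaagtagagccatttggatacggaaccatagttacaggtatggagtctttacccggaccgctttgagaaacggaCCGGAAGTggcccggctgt
Mrps22: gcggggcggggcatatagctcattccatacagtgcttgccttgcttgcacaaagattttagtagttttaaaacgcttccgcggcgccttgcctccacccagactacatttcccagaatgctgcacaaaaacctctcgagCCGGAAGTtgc

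The matched letters begin 28 bases before the start in Mrpl9, 33 in Mrpl22, 19 in Mrpl3 and 11 in Mrps22. None of these 4 genes was called. Mrpl9 had implied levels of 1025, 986, 1057 and 1077 reads in G1 to G4, Mrpl22 had 254, 232, 245 and 246, and Mrps22 had 329, 342, 288 and 336. The first was highest in G4, the second in G1 and the third in G2. The 12 genes with the ETS letters had medians of -0.04, -0.07, 0.04 and 0.07 in the 4 comparisons, and the 12 with the YY1 letters -0.03, -0.09, 0.03 and 0.05. The 40 genes with none of the letters had -0.05, -0.03, 0.08 and 0.06, on the same side of 0 in every comparison.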

How the data were processed

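Libraries of 12 soleus samples were prepared with a stranded mRNA kit (KAPA), per the labels' protocols. The labels give each sample an animal number of its own, and no batch or pairing. Per the submitters' processing notes, edgeR, RSEM 1.2.15 and Bowtie2 2.1.0 are named, with the builds mm10 and GRCm38. The role and order of these tools, and the step that made the p-values, are not given in the sources used here.

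Per the file headers, the 4 tables hold a total, a log2 with its signed fold, and p-values before and after step-up adjustment. The totals the authors deposited are a signal under the header Total counts, which gave 298863066 over all genes. They were taken as normalised reads summed over 12 libraries, which the header does not state. The implied levels, sums and RPM rest on this reading. The signed fold is a score the authors deposited, with lower values written as negative folds. The log2 and p-value columns were used as the authors deposited them. Their adjusted p was blank for 14458 genes in G4 against G2 and 11245 in G4 against G3, and for 0 of the 78 members. The table of G2 against G1 lists 15652 of 28997 genes.

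The tables hold no values per library, so the planned quasi-likelihood test of edgeR was not run, and no error between animals could be computed. An implied standard error is the log2 divided by the normal quantile of its p-value. For the 23 members not listed in G2 against G1, the values of the other tables were combined (those of G3 against G1 and G4 against G3 added, that of G4 against G2 subtracted), and the 55 listed members served to check this. The interaction and the averaged effects used the same errors, with Benjamini-Hochberg adjustment over genes with a total of at least 100. Intervals are at 95% and assume a normal distribution. Genes were matched to GENCODE M21 (GRCm38), with 15179 of 15494 genes and all 78 members found, and length was the median over basic coding transcripts. Trends on length, GC content and total were taken out by natural splines (4 degrees of freedom). Python 3.11.15, pandas 2.3.3, scipy 1.17.1 and patsy 1.0.2 were used.

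The members, lists and tests were chosen with earlier results of these data known. The rule for named genes took, per comparison and subunit, the 3 highest and 3 lowest log2, the 3 highest and 3 lowest levels per kilobase, members past the threshold, those whose place in the structure differs from their symbol and, in other lists, the genes called or furthest from 0, and a part of these is printed. Mrpl3, Mrpl20, Mrpl32, Mrpl37, Mrpl51 and Mrps9, which the rule does not take, and the pairs and promoters shown were chosen after their values were seen. The alternatives were other sets of genes for adjustment, other thresholds, minimum totals of 0 and 500, centring, removal of the trend, a weighted mean, subunits by structure and leaving out genes with a named copy.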

Additional observations from a re-analysis of the deposited data

Results flagged for a closer look

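Processed pseudogenes of 4 members were listed with reads of their own, in rows that no comparison above uses. Mrpl23-ps1 had a total of 8214 normalised reads, 50.6 times the 162 of Mrpl23. Mrpl27-ps had 763 against 3909 for Mrpl27, and Mrpl48-ps had 4240 against 7140 for Mrpl48. Mrps36-ps1 had 1964 and Mrps36-ps2 1873, against 6471 for Mrps36. Each lies above the limit of 3 reads that a count of 0 allows. The values of these 4 members are uncertain, and how reads were shared out between a gene and its copy was not tested. In the authors' deposited table, Mrps36-ps2 had a log2 of 0.55 in G4 against G2 with p = 0.0132, while Mrps36 had 0.01 there.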

How the results depend on the processing

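Of 113 alternatives for the counts of called genes and the subunit medians, 93 kept the count, or kept a median or difference of medians on its side of 0 and within 1.5 times. Part of these could not differ, so the count is no measure of robustness. No member falls under the minimum total, so dropping it leaves the medians as they were. Centring cancels in a difference of medians, and also requiring a fold cannot raise a count of 0. An adjusted p under 0.1 gave 1 gene in place of 0 in G4 against G2 and 1 in place of 0 in the mean of G3 and G4 against G1 and G2, Mrpl14 in both. After removal of the trend, the large subunit median was -0.0245 in place of -0.0473 in G3 against G1, 0.0340 in place of 0.0689 in G4 against G2 and 0.0226 in place of 0.0641 in G4 against G3. The small subunit median was -0.0340 in place of -0.0215 in G2 against G1, -0.0455 in place of -0.0703 in G3 against G1, 0.0024 in place of 0.0380 in G4 against G2 and 0.0204 in place of 0.0646 in G4 against G3. As a weighted mean it was -0.0364 in G2 against G1. The difference of the subunit medians, large minus small, was -0.0273 in G2 against G1, and -0.0121 without the trend and -0.0045 with weighted means. In G3 against G1 it was 0.0230, and 0.0101 with subunits by structure and 0.0105 without genes that have a named copy. In G4 against G2 it was 0.0309, and 0.0101 with weighted means. In G4 against G3 it was -0.0005, and -0.0022 at a minimum total of 500, -0.0138 with weighted means and, with the sign changed, 0.0021 without the trend, 0.0057 without genes that have a named copy and 0.0120 with subunits by structure. The cause was not tested. For single genes, 144 of 144 alternatives over 48 values kept direction and side of the threshold. Readjustment leaves the log2 and so its direction as it was, and centring leaves the adjusted p as it was. Only removal of the trend could change both, so the count is no measure of robustness. No paired analysis was possible because values of single libraries are not in the tables, and for the same reason no replicate could be left out in turn. Depth limits Mrpl23 most, at a total of 162 reads. Implied errors rest on the authors' p-values and carry any fault of the model behind them.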
